A study of Mus musculus with 4 samples.

Results

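The Kruppel-like factor genes Klf2, Klf3, Klf4, Klf6, Klf7, Klf9, Klf10, Klf11, Klf12 and Klf13 were examined by RNA-Seq in wild-type mouse B1a and B2 cells. These 10 genes were taken by name, out of 20599 gene symbols, for their links to B-cell quiescence and homing, with earlier results of these data known. The study asked what part CpG methylation plays in the B1 and B2 fates. It profiled CpG modifications and transcriptomes with and without DNMT3A, and of its assays only RNA-Seq was used here. The Dnmt3a-deficient libraries were not analysed here. B1a cells (n = 2 libraries) came from peritoneal washes and were sorted by markers that included CD23- IgM+ CD5+, and B2 cells (n = 2 libraries) were follicular cells of the spleen, sorted by markers that included IgDhi IgMlo CD21+. All 4 libraries carry the C57BL/6 strain and a wild-type genotype in the labels, which name no treatment. By the methods of the study the cells of each type came from 2 littermate controls of mice whose B lineage lacks Dnmt3a through a Cre allele, at 4 weeks of age for B1a and 8 weeks for B2 cells, whereas the labels give 4 weeks for both. Elsewhere the methods name C57BL/6J mice as controls, and whether the littermates carried Cre is not stated. The effects of cell type, of tissue and of the age that the methods give cannot be told apart. The labels tie no library to a mouse, so the p-values measure the spread between these libraries.

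Kruppel-like factors are zinc finger proteins that bind GC-rich and CACCC-type sequences in promoters and enhancers, and members of the family act as activators or as repressors depending on the co-factors that they recruit. KLF2 is known for keeping resting lymphocytes quiescent and for driving genes of lymphocyte traffic such as S1pr1. KLF4 restrains the division of B cells, KLF3 and KLF12 recruit the CtBP co-repressors, and KLF9, KLF10, KLF11 and KLF13 recruit the SIN3A co-repressor.

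The expected counts of a library summed to between 11032732 and 18588623, and 3 counts were taken as the floor of detection, which covers counting error only. By the methods of the study, 35000 to 100000 cells were sorted for a B1a library and 100000 for a B2 library. Genes with at least 1 count numbered 11290 and 12456 in the B1a and 14223 and 12934 in the B2 libraries. The part of the cell number in the differences was not tested. Across genes, log2 CPM (counts per 1e6 counts, scaled with TMM factors) correlated at 0.870 for the pair of B1a libraries and at 0.976 for the pair of B2 libraries. B1a replicate 2 correlated at 0.884 and 0.872 with the B2 libraries, so it was no closer to B1a replicate 1 than to them. For B1a replicate 1 these values were 0.838 and 0.827. All 5 B-cell markers (such as Pax5) were above the floor in the 4 libraries. Of 5 B1a markers, 4 were higher in B1a cells, and Fcer2a and Cr2, the markers of follicular cells, were both higher in B2 cells. Signal of other cells was present as well, with a summed CPM of 10 macrophage markers of 568 and 502 in the B1a and of 186 and 222 in the B2 libraries, and a summed CPM of 6 red cell genes of 78.8 and 504 against 36.1 and 80.8. All 10 macrophage markers were above the floor in every library, and 2 of them, Lyz2 and Apoe, passed the test. The mast cell list summed to 24.1 and 11.8 CPM in the B1a and 1.47 and 0.941 in the B2 libraries, with Fcer1a at 0 in all 4, and the T-cell list to 126 and 70.6 against 87.4 and 87.8. The part of these cells in the differences of the Klf genes was not tested. In bulk samples, fewer cells of a type and less RNA per cell cannot be told apart.

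All 10 Klf genes passed the filter on low counts and were above the floor in every library, and 5 of the 10 passed edgeR's quasi-likelihood test at a Benjamini-Hochberg adjusted p under 0.05. Over all 12078 genes tested, 5.74% passed. Klf2, Klf4, Klf6 and Klf11 were higher in B1a cells, a direction called for 4.24% of tested genes, and Klf13 was higher in B2 cells, a direction called for 1.5%. Klf3, Klf7, Klf9, Klf10 and Klf12 did not pass. Over the 10 genes the log2 fold change had a median of 1.08 toward B1a cells, against -0.03 over all tested genes. With 2 libraries a group, an exact permutation test of a single gene cannot give a p under 0.33, so each call rests on the spread that edgeR shares across genes.

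The windows of 250 bases upstream of the annotated start are shown for the 4 genes that were higher in B1a cells, so that the promoters of genes that moved the same way can be read side by side. They are RefSeq sequence of GRCm38.p6, 5′ to 3′ on the strand of the gene, for Klf2 at chr8:72318812-72319061 (plus strand), Klf4 at chr4:55532476-55532725 (minus), Klf6 at chr13:5861239-5861488 (plus) and Klf11 at chr12:24651121-24651370 (plus). Capitals mark a MEF2 site in Klf2 and CACGTG, an E-box, in the other 3 windows.
Klf2: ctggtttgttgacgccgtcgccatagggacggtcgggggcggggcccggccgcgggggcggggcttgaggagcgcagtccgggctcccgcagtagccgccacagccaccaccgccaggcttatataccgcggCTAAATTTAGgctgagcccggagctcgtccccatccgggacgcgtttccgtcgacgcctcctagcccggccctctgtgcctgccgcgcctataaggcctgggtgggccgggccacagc
Klf4: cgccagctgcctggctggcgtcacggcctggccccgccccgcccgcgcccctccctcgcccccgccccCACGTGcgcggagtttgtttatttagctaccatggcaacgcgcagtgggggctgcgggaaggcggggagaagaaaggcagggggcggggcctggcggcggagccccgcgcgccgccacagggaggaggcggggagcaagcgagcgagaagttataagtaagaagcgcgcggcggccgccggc
Klf6: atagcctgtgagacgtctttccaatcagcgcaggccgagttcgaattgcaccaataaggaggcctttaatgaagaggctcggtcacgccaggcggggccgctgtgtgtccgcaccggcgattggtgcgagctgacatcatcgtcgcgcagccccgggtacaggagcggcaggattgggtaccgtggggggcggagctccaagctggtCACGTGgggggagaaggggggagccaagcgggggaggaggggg
Klf11: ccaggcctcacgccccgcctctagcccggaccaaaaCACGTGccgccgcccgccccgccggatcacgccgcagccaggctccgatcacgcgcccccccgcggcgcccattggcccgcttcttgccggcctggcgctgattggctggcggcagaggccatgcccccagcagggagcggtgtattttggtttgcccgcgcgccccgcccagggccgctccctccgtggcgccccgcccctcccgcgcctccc
The Klf2 window holds the MEF2 site from base -118, counted from the start, and 2 copies of GGGCGG, a GC box bound by SP and KLF proteins. GGGCGG was matched 4 times in the Klf4 window, 1 time in Klf6 and 4 times in Klf11 as well. CACGTG begins at -182 in Klf4, at -43 in Klf6 and at -214 in Klf11. The marks were chosen after the matches of 11 motifs on both strands were seen. Of the 9 Klf genes that matched a window, all but Klf10, 3 held CACGTG, 1 the MEF2 site, 7 GGGCGG and 6 CACCC, against 6.02%, 2.92%, 32.7% and 52.0% of 32851 windows of that length. The window of Klf13, the gene that moved the other way, held GGGCGG and CACCC and neither of the marked motifs. The windows of Klf3, Klf7, Klf9 and Klf12, which did not pass the test, also held neither. Since the marks were chosen from the matches, their absence from Klf13 is no contrast by direction. CCAAT was matched in 4 of the 9 windows (33.8% of all windows), TGACG in 5 (17.8%), TATAAA in 1 (12.4%), TGANTCA in 1 (6.75%) and TGTTTAC in 1 (3.17%), and the NF-kB site (7.25%) and the CArG box (1.47%) in 0. A TATAAA match can lie within a MEF2 site. The GC content of the 9 windows ran from 48.0% (Klf12) to 78.4% (Klf3), and the shares over all windows were not matched for it. The windows of Klf7 and Klf12 lie inside the annotated spans of these genes, so they precede an internal start. A match of letters is a description of the window and no measure of binding.

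Klf2, on the plus strand of chromosome 8 (72319062 to 72321654, GRCm38), had the highest level of the 10 genes in every library. Its CPM was 1366 and 1281 in the B1a libraries and 495 and 502 in the B2 libraries. The groups did not overlap, and the replicates differed by a ratio of 1.07 in B1a and 1.01 in B2 cells. The log2 fold change was 1.41 (SE 0.10, adjusted p = 0.00236, edgeR), or 2.66-fold higher in B1a cells. Among all gene symbols ranked by TPM (transcripts per 1e6 transcripts, corrected for length), Klf2 stood at ranks 86 and 92 in the B1a and at 157 and 161 in the B2 libraries, so it was an abundant transcript in both cell types. The call held in all 10 alternatives fitted on the 4 libraries, with log2 fold changes between 1.17 and 1.41.

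Klf6, an activator known as a tumor suppressor and expressed in many tissues, showed the largest difference of the 10 genes (chromosome 13, 5861489 to 5870393, plus strand). Its CPM was 819 and 923 in the B1a and 137.7 and 138.3 in the B2 libraries. The B2 replicates were nearly equal, and both B1a libraries stood far above them. Klf6 was 6.31-fold higher in B1a cells, at a log2 fold change of 2.66 (SE 0.12, adjusted p = 0.000683, edgeR), the smallest adjusted p among the Klf genes. Its rank by TPM was 273 and 236 in B1a against 2283 and 2327 in B2 cells. The alternatives on the 4 libraries gave log2 fold changes between 2.40 and 2.66, with adjusted p of at most 0.00783.

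Klf4 (chromosome 4, 55527137 to 55532475, minus strand), known in B cells as a gene that FOXO factors induce and that limits their division, had a CPM of 132 and 118 in the B1a and of 20.6 and 31.6 in the B2 libraries. The groups were well separated, although the B2 replicates differed by a ratio of 1.54. The log2 fold change was 2.25 (SE 0.28, adjusted p = 0.00985, edgeR), or 4.77-fold higher in B1a cells, and it passed in all 10 alternatives, with a highest adjusted p of 0.0440.

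Klf11 (chromosome 12, 24651371 to 24662782, plus strand), a repressor that TGF-beta induces, had a CPM of 74.7 and 101 in the B1a and of 36.8 and 25.8 in the B2 libraries. No B2 library reached the lower B1a library. Klf11 was 2.80-fold higher in B1a cells, at a log2 fold change of 1.49 (SE 0.29), and its adjusted p of 0.0453 (edgeR) lay just under the threshold. It passed in 6 of the 10 alternatives on the 4 libraries, whose adjusted p reached 0.119, and did not pass without B2 replicate 2 (adjusted p = 0.229).

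Klf13 (chromosome 7, 63886351 to 63938915, minus strand), known as an activator of Ccl5 in T cells, ran the other way. Its CPM was 267 and 214 in the B1a and 485 and 429 in the B2 libraries. Both B2 libraries exceeded both B1a libraries, and the log2 fold change was -0.93 (SE 0.16, adjusted p = 0.0276, edgeR), or 1.90-fold higher in B2 cells. It passed in 9 of the 10 alternatives and missed in limma on log2(TPM + 0.1), with an adjusted p of 0.0506.

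**Figure D1:**
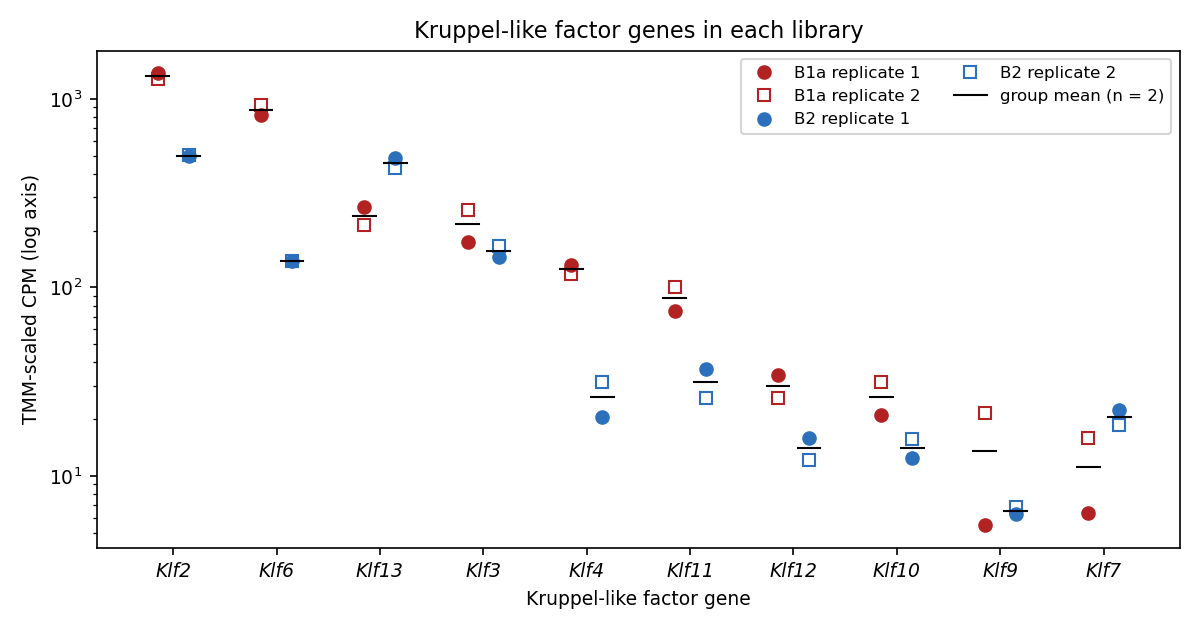
CPM (TMM-scaled, log axis) of each of the 10 Kruppel-like factor genes in the 2 B1a (red) and 2 B2 (blue) libraries, with filled circles for replicate 1, open squares for replicate 2 and a black line at the mean of each group. Klf2 and Klf6 of both B1a libraries lie above their B2 values, Klf13 lies below, and the Klf9 values of the groups overlap.

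The other 5 Klf genes did not pass the test, and for 4 of them the 95% interval of the log2 fold change included 0. Klf3, the CtBP-binding repressor, had a CPM of 175 and 257 in the B1a and of 145 and 167 in the B2 libraries. Its log2 fold change of 0.47 had an interval from -0.06 to 1.00 (adjusted p = 0.295, edgeR). Klf3 was thus counted in plenty in both cell types, and its difference is bounded only by this interval.

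Klf12, also a CtBP-binding repressor, had a CPM of 34.2 and 25.8 in the B1a and of 15.9 and 12.1 in the B2 libraries. The log2 fold change was 1.10, with an interval from 0.11 to 2.08 before adjustment and an adjusted p of 0.195 (edgeR). Klf10, which like Klf11 is induced by TGF-beta, had a CPM of 21.0 and 31.3 against 12.5 and 15.6. Its log2 fold change was 0.89, with an interval from -0.16 to 1.95 and an adjusted p of 0.317 (edgeR). For both genes the libraries of the groups did not overlap, as held for 9 of the 10 Klf genes and for 54.3% of all tested genes, so the separation is no mark of these genes.

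Klf7 and Klf9 were the least repeatable between the B1a replicates. Klf7, a close relative of Klf6, had a CPM of 6.36 and 15.9 in the B1a libraries, a ratio of 2.50, and of 22.3 and 18.7 in the B2 libraries. Both B2 values were the higher ones, with a log2 fold change of -0.88, an interval from -2.33 to 0.58 and an adjusted p of 0.486 (edgeR). Klf9, a gene that glucocorticoids induce, was counted 61 and 240 times in the B1a and 72 and 130 times in the B2 libraries, or at a CPM of 5.47 and 21.6 against 6.25 and 6.80. B1a replicate 1 lay below both B2 libraries and B1a replicate 2 above them, and Klf9 was the only one of the 10 genes whose groups overlapped. Its log2 fold change of 1.05 had an interval from -1.02 to 3.12 (adjusted p = 0.567, edgeR) and turned to -0.26 without B1a replicate 2.

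Without B1a replicate 1 the log2 fold change was 0.72 for Klf3, 1.72 for Klf9, 1.15 for Klf10, 0.89 for Klf12 and -0.36 for Klf7. Without B1a replicate 2 it was 0.17, -0.26, 0.57, 1.29 and -1.68 for the same genes. More of the 10 genes passed in these fits, as did more of all tested genes. In both fits a single B1a library is assumed to vary as the tight B2 replicates do. Exons of Klf3 and Klf7 overlap transcripts of the opposite strand in GENCODE (Gm20033 with Klf3, Gm26649 and Gm13748 with Klf7), and since the strand setting of the counting is not given in the sources used here, reads of these partners cannot be told apart. The posterior standard deviation that RSEM gives for the division of reads between entries was at most 0.907% of the count for any of the 10 genes.

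**Figure D2:**
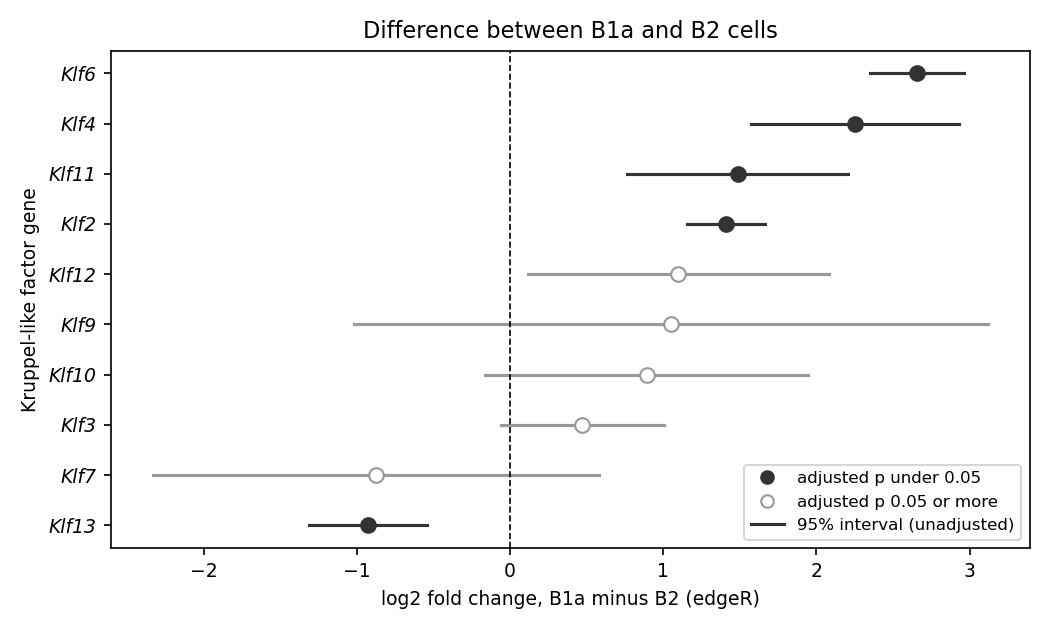
Log2 fold change (B1a minus B2, x axis) of each Kruppel-like factor gene (y axis, ordered by value) from edgeR's quasi-likelihood test, with lines for the unadjusted 95% interval and filled points for an adjusted p under 0.05. Klf6 stands at 2.66 and Klf13 at -0.93, and the interval of Klf9 spans -1.02 to 3.12.

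Levels were compared between genes by TPM, which divides by transcript length. In B1a cells the mean TPM was 1732 ± 109 for Klf2, 479 ± 32.2 for Klf6, 219 ± 55.0 for Klf3, 95.8 ± 9.33 for Klf4, 86.8 ± 15.0 for Klf13 and 51.0 ± 9.77 for Klf11 (SD, n = 2). Klf4 and Klf13 overlapped, whereas the other neighbours in this order did not. The remaining 4 genes, Klf10, Klf7, Klf12 and Klf9, lay between 22.7 ± 1.38 and 9.6 ± 7.98 and overlapped their neighbours in the order. RSEM gave Klf10 a transcript length of 2307 bases in B1a replicate 1 and of 2918 to 3056 bases in the other libraries, and this length enters its TPM. In B2 cells Klf2 again led at 770.3 ± 1.26 TPM, followed by Klf13 at 195 ± 19.1 and Klf3 at 187 ± 16.6 (SD, n = 2), which overlapped each other. Klf6 came next at 89.7 ± 0.735, Klf7 at 43.5 ± 5.93, and Klf4 at 23.6 ± 6.83 and Klf11 at 21.6 ± 5.64 overlapped. The last places were held by Klf10, Klf12 and Klf9, at 13.1, 6.66 and 5.51. Klf6 was thus in place 2 in B1a cells and in place 4 in B2 cells, and Klf13 in place 5 and place 2.

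The 10 genes together reached a summed TPM of 2741 and 2715 in the B1a libraries and of 1362 and 1350 in the B2 libraries. The B1a sum exceeded the B2 sum in both libraries, and the replicates differed little. Klf2 made up 63.5% ± 3.58 of the sum in B1a and 56.8% ± 0.243 in B2 cells (SD, n = 2). Klf6 made up 17.6% ± 1.30 against 6.62% ± 0.0152, and Klf13 3.18% ± 0.528 against 14.4% ± 1.32. The share of Klf3 was 8.04% ± 2.07 in B1a and 13.8% ± 1.31 in B2 cells. Its own mean TPM was 219 in B1a and 187 in B2 cells, and its level did not pass the test. A gene that rises less than the sum of the 10 genes has a lower share, as Klf3 had in B1a cells.

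Ratios within a library need no scaling between libraries. The TPM of Klf6 was 4.68 and 6.58 times that of Klf13 in the B1a libraries, but 0.433 and 0.492 times in the B2 libraries. The order of these genes was thus opposite in the 2 cell types, in both replicates of each. Klf2 was 18.6 and 21.7 times Klf13 in B1a and 3.70 and 4.24 times in B2 cells. Between the genes that were both higher in B1a cells, Klf2 was 3.97 and 3.30 times Klf6 in B1a and 8.54 and 8.62 times in B2 cells.

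**Figure D3:**
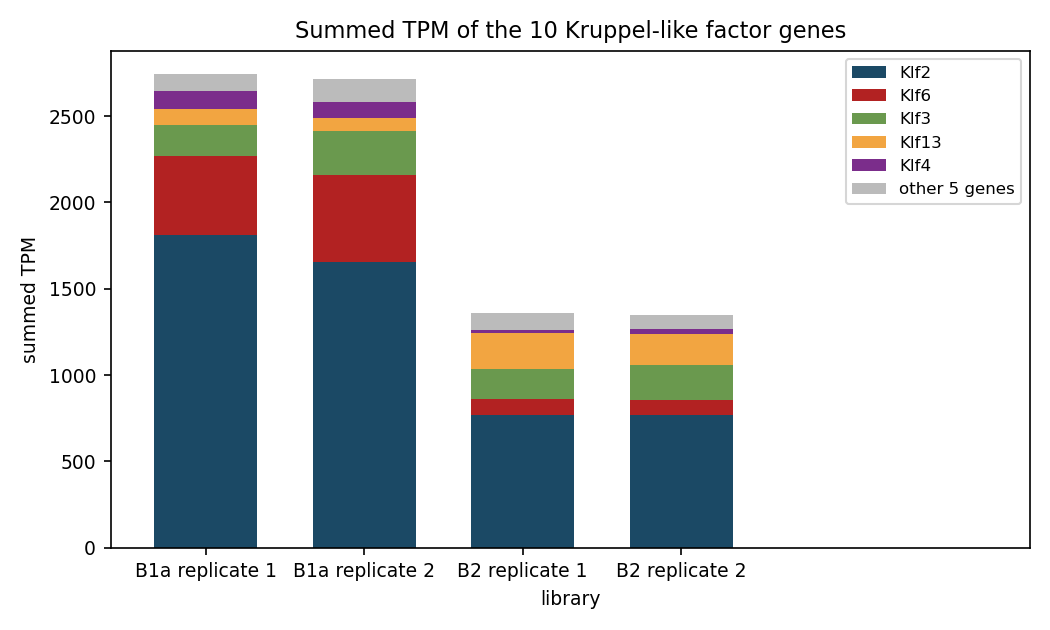
Summed TPM (y axis) of the 10 Kruppel-like factor genes in each of the 4 libraries (x axis), with the bar divided by gene and Klf7, Klf9, Klf10, Klf11 and Klf12 together in grey. The B1a bars reach 2741 and 2715 and the B2 bars 1362 and 1350, with a larger Klf6 band in B1a and a larger Klf13 band in B2 cells.

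Of 16 other genes of the KLF and SP families, 7 had counts enough to be tested and 0 passed edgeR's test, against 5.74% of all tested genes. At an unadjusted p under 0.05 there was 1, and DESeq2 and weighted limma-voom each called 1. The gene at an unadjusted p under 0.05 was Klf8, a CtBP-binding relative of Klf3 and Klf12, at a CPM of 16.1 and 15.7 in the B1a and of 3.90 and 4.03 in the B2 libraries. Its log2 fold change was 2.0 (adjusted p = 0.157, edgeR). Klf14, Klf15, Sp5, Sp7 and Sp8 were at 0 counts in all 4 libraries.

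Of 11 genes for the co-factors through which these proteins act, 0 passed edgeR's test, where 5.74% of all tested genes did. At an unadjusted p under 0.05 there were 3, and DESeq2, weighted limma-voom and the replicate block each called 2. The calls of these alternatives were all toward B2 cells, and the median log2 fold change of the list was -0.26. Ctbp1, a co-repressor of KLF3, KLF8 and KLF12, had a CPM of 185 and 200 in the B1a and of 176 and 167 in the B2 libraries. Its log2 fold change was 0.17, with an interval from -0.17 to 0.51 (adjusted p = 0.577, edgeR). In both fits on TPM it was -0.05, where the median of all genes was -0.30 and -0.32, so it stayed above that median. Sin3a, the co-repressor of KLF9, KLF10, KLF11 and KLF13, had a log2 fold change of -0.26, with an interval from -0.65 to 0.12 (adjusted p = 0.422, edgeR).

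Genes known to act upstream of Klf2 were divided in direction. Of 12 such genes, 1 was higher in B1a cells, 2 were higher in B2 cells and 9 did not pass. Those directions were called for 4.24% and 1.5% of all tested genes. Mef2c, whose product drives Klf2 transcription through MEF2 sites in other cells, had a CPM of 313 and 334 in the B1a and of 808 and 839 in the B2 libraries. This was lower in B1a cells by a log2 fold change of -1.35 (adjusted p = 0.00307, edgeR), the reverse of Klf2 itself. Foxo1, which induces Klf2 and Klf4 in lymphocytes, had a CPM of 248 and 220.0 in the B1a against 478 and 484 in the B2 libraries, and it was also lower in B1a cells (log2 fold change -1.04, adjusted p = 0.00907, edgeR). Fbxw7, part of a ubiquitin ligase that degrades KLF2 protein, was higher in B1a cells, at a CPM of 204 and 217 against 80.1 and 83.7 (log2 fold change 1.36, adjusted p = 0.00701, edgeR). The protein of KLF2 was not measured.

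Homing genes linked to KLF2 were mixed as well, with 3 of 9 called toward B1a cells, 1 toward B2 cells and 5 that did not pass. Among all tested genes, 4.24% were called toward B1a and 1.5% toward B2 cells. S1pr1, the receptor for the exit of lymphocytes from tissues, had a CPM of 531 and 577 in the B1a and of 280.4 and 287 in the B2 libraries (log2 fold change 0.96, adjusted p = 0.00904, edgeR). Itgb7, an integrin of gut homing, had a CPM of 707 and 476 against 188 and 149 (log2 fold change 1.81, adjusted p = 0.0108, edgeR), and missed the threshold in 1 of the 10 alternatives. S1pr1 and Itgb7 thus moved in the direction of Klf2, and whether KLF2 acts on them in these cells was not tested. DESeq2, weighted limma-voom and the replicate block each called 4 homing genes toward B1a and 2 toward B2 cells. Limma-voom, the minimum of 10 counts and the fit with no filter each called 3 and 2.

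Cxcr5, the receptor that guides B cells to follicles and body cavities, was higher in B1a cells at 940 and 1095 against 393 and 410 CPM (log2 fold change 1.34, adjusted p = 0.00428, edgeR). Cxcr4, a receptor of bone marrow homing, was higher in B2 cells, at 94.2 and 146 against 315 and 448 CPM (log2 fold change -1.67, adjusted p = 0.0254, edgeR).

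Among 12 genes tied to single KLF factors, 11 were tested, 2 of them called toward B1a and 1 toward B2 cells. The shares over all tested genes were 4.24% and 1.5%. Myc and Ccnd2, cell cycle genes that KLF2 and KLF4 are known to hold down, were both higher in B1a cells. The CPM of Myc was 363 and 456 against 87.0 and 109, and that of Ccnd2 was 503 and 627 against 116 and 155. Both log2 fold changes were 2.06, with adjusted p of 0.00420 for Myc and 0.00463 for Ccnd2 (edgeR). Both thus moved in the direction of Klf2 and Klf4, and whether KLF proteins act on them in these cells was not tested. Smad7, an inhibitor of TGF-beta signaling that KLF10 and KLF11 regulate, was at 15.9 and 13.1 CPM in the B1a and at 118 and 114 CPM in the B2 libraries (log2 fold change -3.0, adjusted p = 0.00274, edgeR). Cdkn1a, the cell cycle inhibitor that KLF2, KLF4 and KLF6 can induce, was low in all libraries, at 3.86 and 7.46 against 1.04 and 1.10 CPM (log2 fold change 2.39, adjusted p = 0.346, edgeR). Lgals3, which KLF3 represses, had 2.96 and 10.9 against 4.34 and 7.58 CPM, and its log2 fold change of 0.21 had an interval from -2.25 to 2.68 and changed sign in several alternatives.

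Of 10 other quiescence genes, 1 passed, beside 5.74% of all tested genes, and it was higher in B2 cells. DESeq2 and the replicate block each called 4 (2 in each direction), and weighted limma-voom called 3 (2 of them toward B1a cells). The fit with no filter called 3 (1 toward B1a cells), so the direction of the list depended on the test. Without B1a replicate 1 or replicate 2 more of them were called, as over all tested genes. Btg1, which restrains cell division, had a CPM of 746 and 1040 in the B1a and of 1968 and 2129 in the B2 libraries (log2 fold change -1.20, adjusted p = 0.0167, edgeR), so it went opposite to Klf2 and Klf4.

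Klf4, Klf6 and Klf10 are known as genes that stimulated cells induce quickly, and immediate early and stress genes were read beside them. Of 18 such genes, 17 were tested, 5 were called toward B1a cells and 0 toward B2 cells. Of all tested genes, 4.24% were called toward B1a and 1.5% toward B2 cells. DESeq2 and the replicate block each called 9 toward B1a and 2 toward B2 cells, the fit with no filter 7 and 2, and weighted limma-voom 8 and 1. Without B1a replicate 1 or replicate 2 more were called in both directions, as over all tested genes. Fos had a CPM of 860.5 and 702 in the B1a and of 192 and 149.8 in the B2 libraries (log2 fold change 2.19, adjusted p = 0.00307, edgeR), and Fosb of 715 and 602 against 124 and 127 (log2 fold change 2.39, adjusted p = 0.0013, edgeR). Atf3, a transcription factor of the stress response, was at 392 and 309 CPM against 1.04 and 1.10 (log2 fold change 8.34, adjusted p = 0.0003, edgeR). Ppp1r15a was at 298 and 224 against 54.9 and 70.2 CPM (log2 fold change 2.06, adjusted p = 0.00619, edgeR), and the fifth gene was Dusp1. Junb, at 471 and 366 against 337 and 266 CPM, did not pass (log2 fold change 0.48, adjusted p = 0.216, edgeR). The 5 called genes thus moved with Klf2, Klf4, Klf6 and Klf11, and their part in the Klf differences was not tested.

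**Figure D4:**
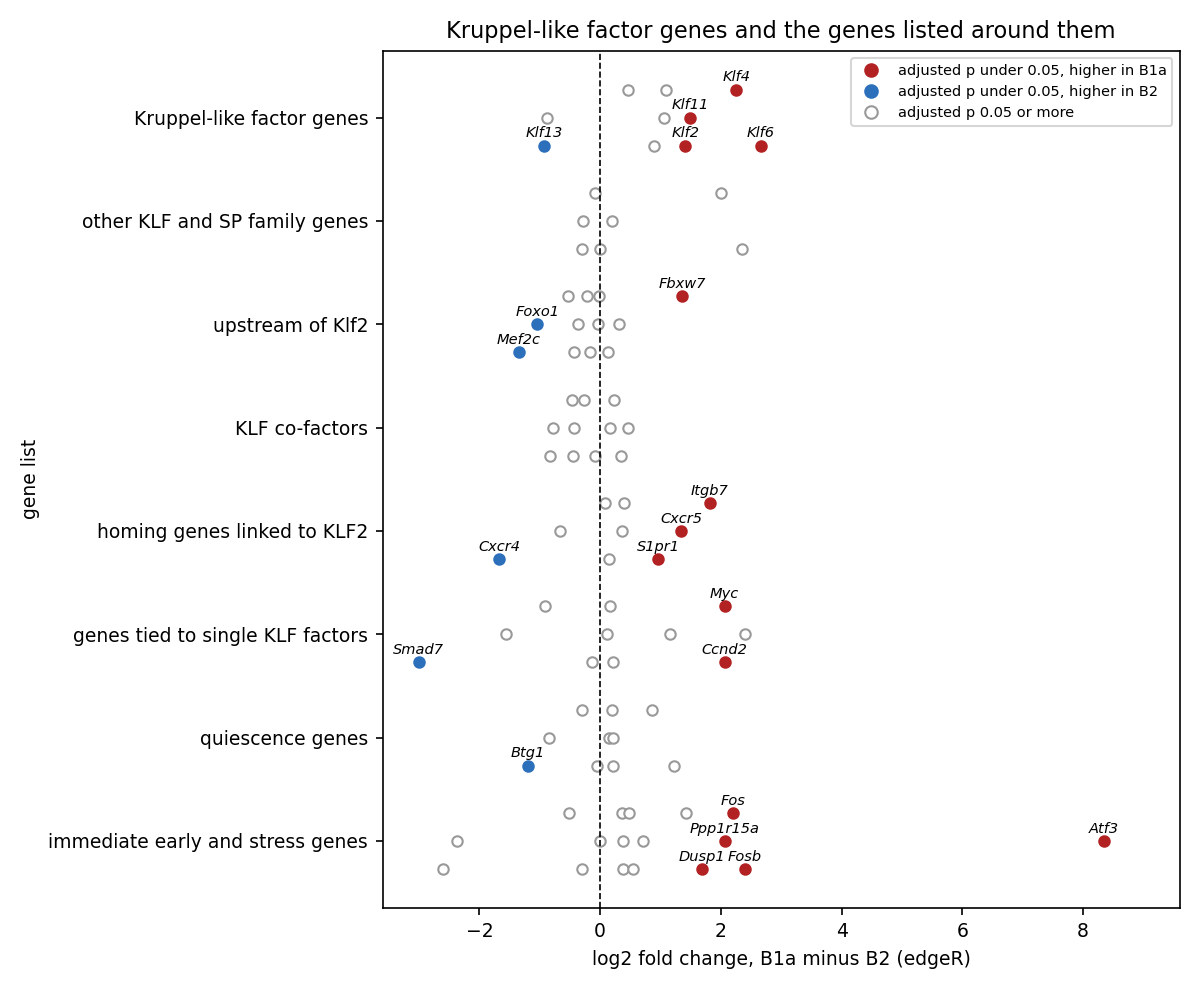
Log2 fold change (B1a minus B2, x axis) of every tested gene in 8 lists (y axis, the Kruppel-like factor genes on top), in red or blue where the adjusted p of edgeR's test was under 0.05 and open otherwise. The co-factor list has a median of -0.26 and no filled point, Mef2c and Foxo1 lie left of 0, and Atf3 lies alone at 8.34.

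The genes whose pattern over the 4 libraries was most like that of Klf2 were sought among 8900 genes with a mean CPM of at least 10, by the root mean square difference of log2 CPM centred on each gene. Among the nearest 3 were 2610002M06Rik (0.0405) and Il5ra (0.0415). Il5ra, the receptor chain for interleukin 5, a growth factor of B1 cells, had a CPM of 424 and 377 in the B1a and of 155 and 159 in the B2 libraries. For Klf6 the nearest were Wee1 (0.108), Ckap4 (0.109) and Mcoln2 (0.114). Over 4 libraries in 2 groups, a like pattern means a like fold change with replicates that deviate alike.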

How the data were processed

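RNA-Seq of 2 B1a and 2 B2 libraries was analysed. Per the labels, RNA was isolated with a Qiagen micro kit and libraries were made after ribosomal RNA removal. The study's methods name a stranded KAPA kit, and its discussion states that polyadenylated RNA was enriched. How the RNA was selected is thus not settled by these sources. Reads were aligned to mm10 by the authors, who counted them over RefSeq genes with RSEM (1.2.29 in the submitters' processing notes, while the study's methods name another version). The deposited expected counts cover 21970 gene entries, and a read that matches several entries is divided between them. The deposited TPM values have the same total in each library and were used for levels between genes. The deposited posterior standard deviation of each count, a signal value in reads, was used to judge that division.

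Expected counts were summed by symbol and rounded. They were filtered with filterByExpr, scaled by TMM (factors from 0.963 to 1.05) and tested between B1a and B2 cells with edgeR 4.0.16 (R 4.3.3), by its two-sided quasi-likelihood test over 12078 genes with Benjamini-Hochberg adjustment at 0.05, in one fit of the 4 libraries with no replicate block. The biological coefficient of variation was 0.507. The study's own EBSeq test was not run. The SE was derived as the absolute log2 fold change divided by the square root of the F statistic of the test. Intervals are 95% and unadjusted, and use this SE with a t distribution at 5.90 degrees of freedom. Library totals lay between 11032732 and 18588623 counts.

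The Klf genes and the 7 lists around them were chosen with earlier results of these data known. In each list, genes with an adjusted p under 0.05 (at most 4, by adjusted p) and 14 set genes were named, and for Klf2 and Klf6 the 3 genes nearest in pattern. Of the genes that this rule names, 2 are not reported here. Klf8, Dusp1, Lyz2 and Apoe were named after their values were seen. Alternatives were DESeq2 1.42.0, upper quartile factors, limma-voom (limma 3.58.1) with and without cell type weights (weighted limma-voom), a minimum of 10 counts in every library or of 1 count in any, limma on log2(TPM + 1) and log2(TPM + 0.1) at a mean TPM of at least 1, entries without summing, a replicate block, and each library left out. Promoter windows and positions came from RefSeq and GENCODE tables of GRCm38, which is mm10.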

Additional observations from a re-analysis of the deposited data

How the results depend on the processing

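Klf2, Klf4 and Klf6 kept their direction and passed in all 10 alternatives on the 4 libraries and in all 4 fits that left out 1 library. Of the 10 Klf genes, 5 passed, 3 passed in limma on log2(TPM + 0.1), and between 4 and 9 passed when a library was left out. The 693 genes called overall (512 higher in B1a and 181 higher in B2 cells, 73.9% to B1a) became 1550 with DESeq2 (1004 and 546), 1415 with weighted limma-voom (1054 and 361), 1141 with no filter (779 and 362) and 359 in limma on log2(TPM + 0.1) (196 and 163), and lay between 539 and 6143 when a library was left out. In limma on log2(TPM + 1) 499 were called (266 and 233), and both fits on TPM moved the median of all genes by -0.27 and -0.29 (log2) toward B2 cells. Of the genes in the 7 lists, 16 were called, 30 with DESeq2, 27 with weighted limma-voom, and between 16 and 50 with a library left out. In each of the 7 lists more genes were called without B1a replicate 1 or replicate 2, as over all tested genes. The highest counts belong to fits with a single B1a library, which is assumed to vary like the B2 replicates.

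The replicate numbers are shared by the groups, but nothing in the labels pairs the libraries, and the deviations of same-numbered libraries correlated at -0.0347 over 12078 genes. With the number as a replicate block 1481 genes (889 and 592) and 29 list genes were called, and the same number of Klf genes, 5.

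By CPM, which does not divide by length, the share of Klf2 in the summed level was 45.0% in B1a and 36.6% in B2 cells, that of Klf6 29.6% and 10.1%, and that of Klf13 8.18% and 33.5%. The log2 fold change of Klf9 reversed to -0.26 without B1a replicate 2, the lowest of its values with a library left out, and was 1.72 without B1a replicate 1, the highest. That of Ctbp1 reversed to -0.0546 and -0.0548 in the limma fits on TPM, a smaller move than that of the median of all genes in these fits. That of Lgals3 reversed to -0.14 in both limma-voom fits, -0.20 and -0.24 on TPM, -0.0088 with the replicate block, and -0.13 without B2 replicate 1, and it lay between -1.02 (without B1a replicate 2) and 0.86 (without B1a replicate 1) with a library left out. The cause of the Klf9 and Lgals3 changes was not tested.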
